A study of Homo sapiens with 6 samples.

Results

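The genes described here are 10 iron-handling and redox genes and the genes annotated on the opposite strand of their exons. The listed genes were FTH1, FTL, TFRC, NQO1, HMOX1, TXNRD1, GCLM, SLC7A11, GPX4 and BEST1. BEST1 was listed because its exons overlap those of FTH1 on the other strand, and the same overlap added 2 further genes, ENSG00000261602 opposite NQO1 and SLC7A11-AS1 opposite SLC7A11. Together they made 12 of the 57209 gene identifiers in each table. The other 6 listed genes, FTL, HMOX1, TXNRD1, GCLM, GPX4 and TFRC, had no annotated exon on the opposite strand.

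The RNA came from MB157-Cas9, an established human triple-negative breast cancer line whose titles name the Cas9 nuclease, whereas the series text describes a line with stable SOX9 expression. Cells received a guide RNA against SOX9, which encodes a transcription factor, or a control guide RNA, and were collected on day 4 after sorting for the top 50% of guide-expressing cells. There were 3 libraries with SOX9 sgRNA and 3 with control sgRNA. Cells of both groups were grown in DMEM with serum, penicillin/streptomycin, glutamine and puromycin. One line was used and the labels call the replicates technical, so the p-values measure the spread between libraries only.

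NRF2, encoded by NFE2L2, is a transcription factor that KEAP1 normally marks for degradation. When KEAP1 is modified by oxidants or electrophiles, NRF2 accumulates, pairs with small MAF proteins and binds antioxidant response elements in genes such as NQO1, HMOX1, TXNRD1, GCLM, SLC7A11, FTH1 and FTL. Iron adds a second layer of control, because the iron regulatory proteins ACO1 and IREB2 bind stem-loops called iron-responsive elements when cellular iron is low. Binding in the 5′ UTR blocks translation of the ferritin mRNAs, and binding in the 3′ UTR protects the TFRC mRNA from decay.

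The iron-responsive elements are shown because they are the sequence feature that ferritin and the transferrin receptor share while lying at opposite ends of the mRNA. They were read from GENCODE 29 transcripts as 30 bases around each match to the usual element, an unpaired C, 5 paired stem positions and a CAGNGN loop, and the capitals mark the loop. A match anywhere in a coding transcript, coding sequence included, was found in 5.17% of 19669 coding genes. For the listed genes only matches in UTRs were counted, so that share is no UTR background. FTH1 and FTL each had 1 match, TFRC had 5, and none was found in the UTRs of the other 7 listed genes.
FTH1 5′ UTR: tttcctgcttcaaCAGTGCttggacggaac
FTL 5′ UTR: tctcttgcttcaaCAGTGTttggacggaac
TFRC 3′ UTR, site 1: tatttatcagtgaCAGAGTtcactataaat
TFRC 3′ UTR, site 2: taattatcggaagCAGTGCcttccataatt
TFRC 3′ UTR, site 3: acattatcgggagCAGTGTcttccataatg
TFRC 3′ UTR, site 4: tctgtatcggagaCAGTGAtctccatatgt
TFRC 3′ UTR, site 5: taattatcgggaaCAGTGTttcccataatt

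RefSeq promoter windows (GRCh38.p14, 250 bases before to 50 after a start) were matched for FTL, NQO1, TXNRD1, GCLM, GPX4 and TFRC. The antioxidant response element core TGACNNNGC, searched on both strands, was present in 13.3% of all 35116 windows, and the SOX core ACAANGG in 12%. The element core was found once for GCLM and at 3 places in 2 windows for TXNRD1, of which the first is shown, with the core in capitals, and not in the windows of FTL, NQO1, GPX4 or TFRC. The SOX core was found in the NQO1 window and in 1 of the 3 GPX4 windows. The GCLM stretch lies at chr1:93909445-93909474 on the minus strand and the TXNRD1 one at chr12:104215670-104215699 on the plus strand.
GCLM: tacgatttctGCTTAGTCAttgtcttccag
TXNRD1: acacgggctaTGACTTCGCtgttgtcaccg

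Library totals were 776125 to 1018854 counts with SOX9 sgRNA and 777960 to 881655 with control sgRNA. At this depth the 3 counts that a count of 0 allows correspond to 2.92 to 4.31 CPM (counts scaled to a common library size over the tested genes, with the TMM normalization of edgeR); such limits cover counting error only. SOX9 itself had 44.6, 50.7 and 58.4 CPM with SOX9 sgRNA, against 50.7, 66.0 and 63.3 CPM with control sgRNA. Its log2 fold change of -0.22 (SE 0.26, adjusted p = 0.70) did not separate the groups; a guide that cuts a gene need not lower its RNA, so this level does not check the labels. The 7 epithelial markers summed to 788 to 1052 counts per library with SOX9 sgRNA and 763 to 909 with control sgRNA. Scaled, KRT8 overlapped between groups, at 601 ± 98.7 CPM with SOX9 sgRNA and 554 ± 17.6 CPM with control sgRNA (adjusted p = 0.57 by edgeR). KRT19 was called lower, at 190 ± 32.8 CPM with SOX9 sgRNA and 318 ± 6.22 CPM with control sgRNA (adjusted p = 1.83e-05 by edgeR). Other markers of the list separated the groups in either direction. Those of them that were tested were not called, and another, lower with SOX9 sgRNA, had too few counts to be tested. ESR1 summed to 9 with SOX9 sgRNA and 3 with control sgRNA, and PGR to 15 with SOX9 sgRNA and 11 with control sgRNA. ERBB2 (HER2), whose protein a triple-negative tumour does not overexpress, had 537 counts with SOX9 sgRNA and 484 with control sgRNA. The mesenchymal markers summed to 83 to 126 counts per library with SOX9 sgRNA and 174 to 201 with control sgRNA. They did not move together: VIM had 194 counts in all with SOX9 sgRNA and 501 with control sgRNA, and FN1 had 101 with SOX9 sgRNA and 44 with control sgRNA. Markers of endothelium (CDH5, VWF) and of red cells (HBB, HBA1, HBA2) were at 0 in all libraries. Of the leukocyte markers, PTPRC summed to 0 counts with SOX9 sgRNA and 1 with control sgRNA, CD3E was at 0, and CD68 summed to 99 with SOX9 sgRNA and 50 with control sgRNA. By edgeR, VIM (adjusted p = 8.26e-12) and KRT19 were called lower, while FN1 (adjusted p = 0.071) and CD68 (adjusted p = 0.19) did not pass. The part of the VIM, KRT19, FN1 and CD68 differences in the results described here was not tested.

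The tables do not show from which strand a molecule came. Per the file headers, counting used strand setting 1, which credits a fragment to the gene whose strand its first read matches. As background, the first read of the version of the library kit named in the labels is complementary to the RNA. Whether this sets the division of counts between overlapping genes was not tested. The same holds for genes with no opposite exon, so every level given here, high or low, is the number of fragments credited to that gene under this setting.

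Of the 12 genes, 8 had enough counts to be tested, and edgeR's quasi-likelihood test with Benjamini-Hochberg adjustment over all 7959 tested genes called 1 of them higher and 1 lower. Among all tested genes 2.99% were called higher and 6.02% lower, 9.01% in all, so the members' share rests on 1 gene in each direction. ENSG00000261602 rose and TFRC fell with SOX9 sgRNA. In 4 of the 8 the CPM of the groups did not overlap (BEST1, NQO1 and ENSG00000261602 higher, TFRC lower), beside 24.5% of all tested genes. HMOX1, TXNRD1, GCLM and SLC7A11 did not pass the filter on low counts and are described by their counts.

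**Figure D1:**
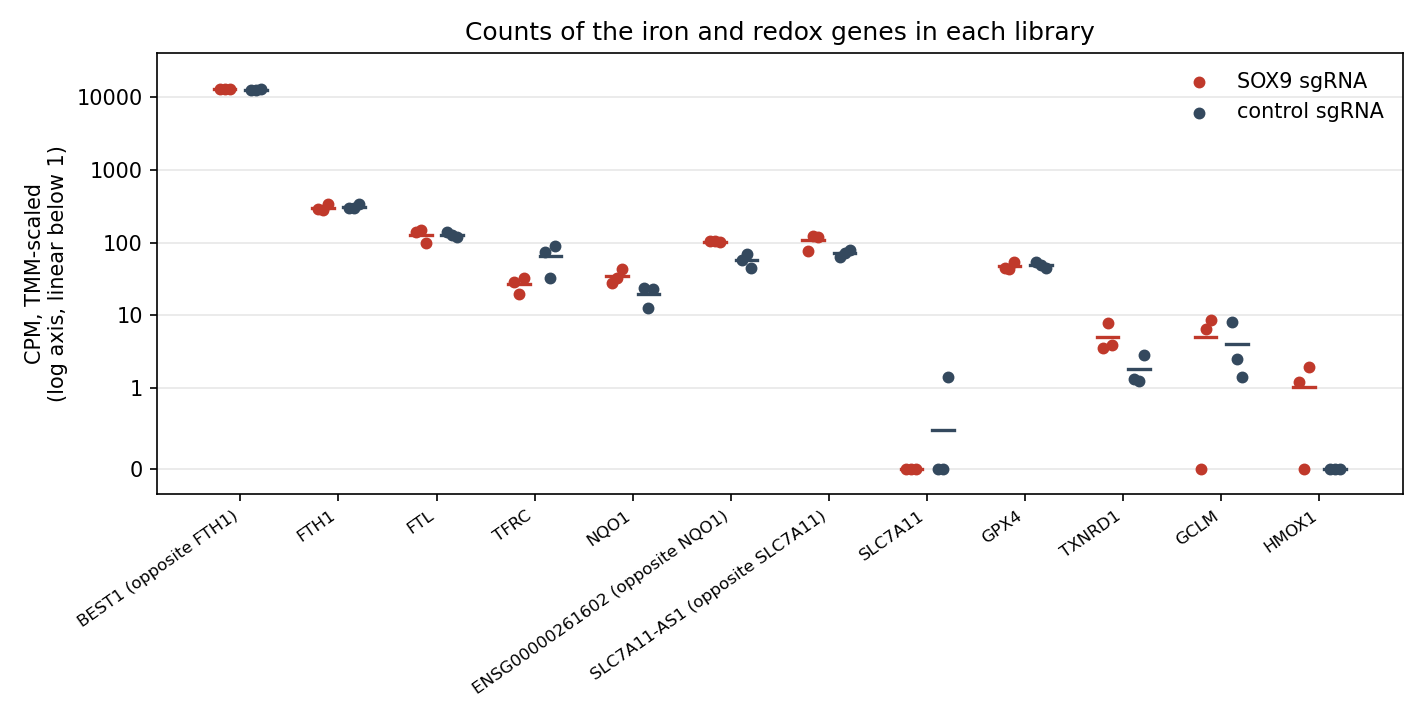
CPM of each gene in each library on a log axis that is linear below 1, with SOX9 sgRNA left of control sgRNA; points are libraries and bars are means of 3. BEST1 stands far above the other genes in all 6 libraries, and TFRC is the gene whose SOX9 sgRNA points all lie below the control ones.

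TFRC, the transferrin receptor that imports iron-loaded transferrin, fell to 0.42 of its control level in the counts credited to it. It lies at chr3:195754054-195809060 on the minus strand (GRCh37) and had 24, 15 and 33 counts with SOX9 sgRNA, against 56, 26 and 62 with control sgRNA. As CPM these were 28.9, 19.5 and 32.1 with SOX9 sgRNA, against 74.8, 33.0 and 89.1 with control sgRNA. The groups did not overlap, but control replicate 2 lay close to the highest SOX9 sgRNA library and far from the other control libraries. The means were 26.8 ± 6.56 CPM with SOX9 sgRNA and 65.6 ± 29.2 CPM with control sgRNA (SD, n = 3 each), a log2 fold change of -1.26 (SE 0.31, 95% interval -1.88 to -0.64, adjusted p = 0.00297 by edgeR). In bulk RNA, fewer cells of a type and less RNA per cell cannot be told apart. Without control replicate 3 the log2 fold change was -0.99 and the adjusted p by edgeR was 0.0509, so the call ended there. Over the 6 fits that each left out a library it ranged from -1.60 to -0.99, with the call kept in 5.

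The 3 genes whose log2 CPM followed that of TFRC most closely over the 6 libraries, among 2456 genes of sufficient level, were GFM2, GFOD1-AS1 and ENSG00000226706, with Pearson r of 0.985, 0.984 and 0.981. GFM2, a mitochondrial translation factor, had a log2 fold change of -0.30. These correlations share the 6 libraries and their groups and are given as a description.

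Ferritin, the iron-storage shell built of a heavy chain with ferroxidase activity (FTH1) and a light chain (FTL), did not pass the test in either chain. FTH1, at chr11:61727190-61735132 on the minus strand (GRCh37), had 241, 216 and 344 counts with SOX9 sgRNA, against 222, 234 and 233 with control sgRNA. Scaled to depth it averaged 302 ± 28.9 CPM with SOX9 sgRNA and 309.5 ± 22.1 CPM with control sgRNA (SD, n = 3 each), and the groups overlapped. The log2 fold change was -0.03 (SE 0.12, 95% interval -0.26 to 0.20, adjusted p = 0.93 by edgeR). It turned to 0.15 when library totals replaced TMM.

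FTL, at chr19:49468558-49470135 on the plus strand, had 116, 113 and 102 counts with SOX9 sgRNA, against 105, 99 and 84 with control sgRNA. Its mean was 128.6 ± 25.6 CPM with SOX9 sgRNA and 128.9 ± 10.1 CPM with control sgRNA (SD, n = 3 each), with overlapping groups. Its log2 fold change was -0.02 (SE 0.18, 95% interval -0.37 to 0.34, adjusted p = 0.98 by edgeR) and 0.17 with library totals. SOX9 replicate 3 was the lowest of all 6 libraries once scaled. Ferritin has many processed pseudogenes, with which its reads can be shared: 25 named FTH1P held 17 to 20 counts per library with SOX9 sgRNA and 13 to 17 with control sgRNA, and 16 named FTLP held 7 to 20 with SOX9 sgRNA and 3 to 10 with control sgRNA.

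BEST1, opposite the ferritin heavy chain gene, held far more counts than FTH1. It encodes bestrophin-1, a chloride channel known from the retinal pigment epithelium, and lies at chr11:61717293-61732987 on the plus strand. It had 10814, 9922 and 13164 counts with SOX9 sgRNA, against 9333, 9797 and 8823 with control sgRNA. That placed it among the 9 most counted genes of each library, at rank 3 to 5 with SOX9 sgRNA and rank 8 or 9 with control sgRNA.

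Scaled, BEST1 had 13024, 12895 and 12815 CPM with SOX9 sgRNA, against 12460, 12441 and 12685 CPM with control sgRNA. All SOX9 sgRNA libraries lay above all control ones, by a small margin. The log2 fold change was 0.04 (SE 0.047, 95% interval -0.05 to 0.14, adjusted p = 0.67 by edgeR). With library totals it was 0.23 with an adjusted p of 0.000243 by edgeR, so the call depended on the scaling; with that scaling the median of all tested genes was 0.19, against 0.01 with TMM.

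The exons of the pair overlap over 1267 bases in blocks of 36 and 1231 bases, which is 62.4% of the FTH1 exons and 14.2% of the BEST1 exons. The tables give counts for whole genes, so how many of the BEST1 counts lie in the overlap was not analysed here. FTH1 held 2.18%, 2.13% and 2.55% of the counts of the pair with SOX9 sgRNA, against 2.32%, 2.33% and 2.57% with control sgRNA. In each library BEST1 therefore had 37.9 to 45.9 counts for every count of FTH1. The mean share was 2.29 ± 0.227% with SOX9 sgRNA and 2.41 ± 0.141% with control sgRNA (SD, n = 3 each), and an exact two-sided permutation test, whose smallest possible p is 0.1, gave p = 0.5. The groups overlapped through SOX9 replicate 3 alone: without it the SOX9 sgRNA shares lay under all control ones and the difference in means was -0.254 percentage points, against -0.124 with all libraries.

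**Figure D2:**
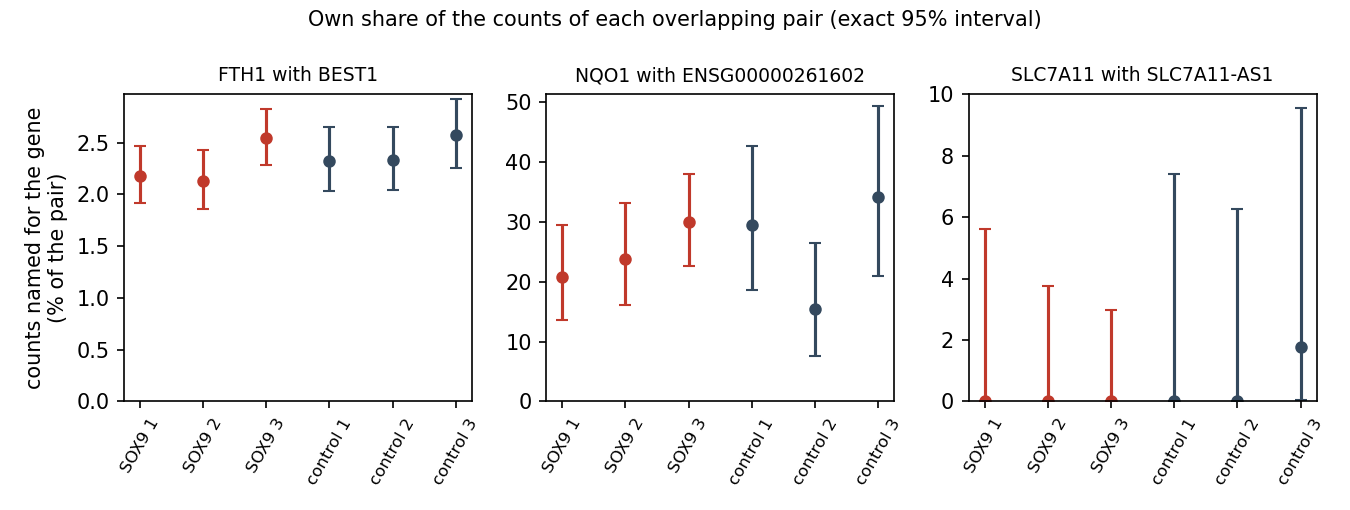
Share of a pair's counts that was assigned to the listed gene rather than to its opposite-strand partner, in percent, per library with exact 95% binomial intervals; SOX9 sgRNA stands left of control sgRNA. FTH1 held 2.13 to 2.57% in all 6 libraries, NQO1 15.4 to 34.0%, and SLC7A11 at most 1.79%.

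NQO1, a quinone reductase and a standard readout of NRF2, lies at chr16:69740899-69760854 on the minus strand. It had 23, 25 and 44 counts with SOX9 sgRNA, against 18, 10 and 16 with control sgRNA. Scaled, the values were 27.7, 32.5 and 42.8 CPM with SOX9 sgRNA, against 24.0, 12.7 and 23.0 CPM with control sgRNA, and the groups did not overlap. The log2 fold change of 0.80 (SE 0.36, 95% interval 0.08 to 1.52) did not pass the test, with an edgeR p of 0.0294 before and 0.18 after adjustment. It ranged from 0.54 to 0.96 over the fits that left out a library.

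ENSG00000261602, at chr16:69743777-69744486 on the plus strand, is an unnamed gene whose 575 exon bases all lie inside 1 exon of NQO1, where they cover 17.7% of the NQO1 exon length. It had 88, 80 and 103 counts with SOX9 sgRNA, against 43, 55 and 31 with control sgRNA. The mean rose to 103 ± 2.90 CPM with SOX9 sgRNA, against 57.3 ± 12.6 CPM with control sgRNA (SD, n = 3 each). All SOX9 sgRNA libraries were higher, with a log2 fold change of 0.84 (SE 0.22, 95% interval 0.40 to 1.28, adjusted p = 0.00605 by edgeR). Without control replicate 3 it was 0.69 with an adjusted p of 0.0607 by edgeR.

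NQO1 held 20.7%, 23.8% and 29.9% of the counts of the pair with SOX9 sgRNA, against 29.5%, 15.4% and 34.0% with control sgRNA. The mean shares of 24.8 ± 4.69% with SOX9 sgRNA and 26.3 ± 9.73% with control sgRNA overlapped (SD, n = 3 each; exact permutation p = 0.9). Their difference of -1.49 percentage points became -6.95 without control replicate 2 and turned to 2.37 without control replicate 3. With 47 to 147 counts in the pair per library, the binomial intervals were wide, the widest from 20.9% to 49.3% in control replicate 3.

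NQO1-DT, the gene head to head with NQO1, fell. It starts 61 bases from NQO1 on the plus strand and had 992, 1036 and 906 CPM with SOX9 sgRNA, against 1398, 1425 and 1439 CPM with control sgRNA. The groups were far apart, and the log2 fold change was -0.54 (SE 0.076, adjusted p = 1.17e-07 by edgeR). NQO1-DT is not among the 12 genes, lies outside the rule for naming genes, and came from a look at genes within 3000 bases of the 12. The other such genes that were tested, NFAT5, GYS1 and SBNO2, did not pass (adjusted p = 0.18, 0.94 and 0.73 by edgeR). NQO1-DT is thus given as the only called gene among these neighbours. It also overlaps exons of NOB1 over 429 bases on the other strand. The 250 bases upstream of the RefSeq NQO1 start are at chr16:69726561-69726810 on the minus strand of GRCh38.p14 and are shown with the 1 SOX core match in capitals, on the strand opposite to NQO1.
NQO1 upstream: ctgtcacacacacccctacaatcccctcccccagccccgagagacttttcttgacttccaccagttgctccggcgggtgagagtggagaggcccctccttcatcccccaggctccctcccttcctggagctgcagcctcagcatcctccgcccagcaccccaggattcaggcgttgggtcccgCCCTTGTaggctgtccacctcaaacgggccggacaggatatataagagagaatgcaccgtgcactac

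SLC7A11, the cystine transporter subunit that supplies cysteine for glutathione, was at the floor. It lies at chr4:139085251-139163503 on the minus strand and had 0 counts in all 3 SOX9 sgRNA libraries, against 0, 0 and 1 with control sgRNA. SLC7A11-AS1, at chr4:138978618-139099331 on the plus strand, had 64, 96 and 122 counts with SOX9 sgRNA, against 48, 57 and 55 with control sgRNA. Its exons overlap 865 bases of SLC7A11, all within the exon at chr4:139085251-139093171.

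SLC7A11-AS1 averaged 107 ± 26.0 CPM with SOX9 sgRNA and 71.8 ± 7.51 CPM with control sgRNA (SD, n = 3 each), with 1 overlapping library. SOX9 replicate 1, at 77.1 CPM, lay within the control range of 64.1 to 79.1 CPM, and the other SOX9 sgRNA libraries, at 125 and 119 CPM, lay above it. A log2 fold change of 0.58 (SE 0.21, 95% interval 0.15 to 1.00, adjusted p = 0.0789 by edgeR) did not pass. It passed without SOX9 replicate 1, at 0.75 with an adjusted p of 0.023 by edgeR, with library totals, at 0.76 (adjusted p = 0.011), and with the stricter filter on low counts, at 0.62 (adjusted p = 0.034).

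GPX4, the glutathione peroxidase that reduces lipid hydroperoxides and opposes ferroptosis, had 37, 33 and 55 counts with SOX9 sgRNA, against 41, 39 and 31 with control sgRNA. It lies at chr19:1103936-1106787 on the plus strand. The means were 47.0 ± 5.73 CPM with SOX9 sgRNA and 49.6 ± 5.08 CPM with control sgRNA, and the groups overlapped (SD, n = 3 each). It had a log2 fold change of -0.07 (SE 0.27, 95% interval -0.62 to 0.47, adjusted p = 0.93 by edgeR), or 0.11 with library totals.

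Few counts were credited to the remaining NRF2 targets. TXNRD1, the cytosolic thioredoxin reductase at chr12:104609557-104744061, had 3, 6 and 4 counts with SOX9 sgRNA, against 1, 1 and 2 with control sgRNA. GCLM, the modifier subunit of the enzyme that starts glutathione synthesis, at chr1:94350761-94374966, had 0, 5 and 9 counts with SOX9 sgRNA, against 6, 2 and 1 with control sgRNA. HMOX1, the inducible heme oxygenase that frees iron from heme, at chr22:35776354-35790207, had 1, 0 and 2 counts with SOX9 sgRNA, against 0 in each control sgRNA library. The TXNRD1 counts did not overlap between groups and those of GCLM and HMOX1 did, but none of the 3 entered the test. At their nearest, the TXNRD1 groups stood at 3.61 CPM with SOX9 sgRNA and 2.88 CPM with control sgRNA. These values lie near the 2.92 to 4.31 CPM that a count of 0 allows, so the separation is no more than a description.

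Under the strand setting used, and per kilobase of exon, BEST1 had the highest level of the 12 genes, at 1446 ± 11.8 CPM per kb with SOX9 sgRNA and 1403 ± 15.2 CPM per kb with control sgRNA (SD, n = 3 each). With SOX9 sgRNA it was followed by ENSG00000261602 at 179.8 ± 5.05, FTH1 at 148.7 ± 14.2 and FTL at 146 ± 29.2 CPM per kb. FTH1 and FTL were within their spread of each other, and the ENSG00000261602 level lay beyond the SD of FTH1 but within 2 SD of FTL. GPX4 at 23.1 ± 2.82, SLC7A11-AS1 at 17.3 ± 4.22, NQO1 at 10.6 ± 2.38 and TFRC at 3.403 ± 0.832 CPM per kb came next, and the other 4 genes were below 1. With control sgRNA the 2 ferritin chains, at 152 ± 10.9 for FTH1 and 147 ± 11.5 CPM per kb for FTL, stood above ENSG00000261602 at 99.6 ± 21.97 CPM per kb.

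The wider NRF2, glutathione and iron pathways were followed through 7 lists with 99 genes, of which 97 had an entry in the tables. Of these, 36 were tested, and edgeR called 1 higher and 2 lower, or 8.33%, beside 9.01% of all tested genes, with a median log2 fold change of -0.07 beside 0.01. Of the 27 genes on the strand opposite them, 21 were tested, with 4 called higher and 4 lower, or 38.1%, and a median of -0.04. That share was not compared with genes of like level, and no set test was run, so it is a description only. With library totals the medians were 0.11 and 0.14, beside 0.19 over all tested genes. Of the 11 called genes, 4 kept the call whichever library was left out, namely EPHX1, MRNIP, ENSG00000267062 and PCBP1-AS1. Library totals ended the calls of GSTP1 (-0.22), CBR1-AS1 (-0.17), SLC9B1 (-0.11) and PCBP1-AS1 (-0.09), and DESeq2 ended those of SOD1, TMEM63A, ENSG00000264769, GSTP1, CBR1-AS1 and SLC9B1.

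**Figure D3:**
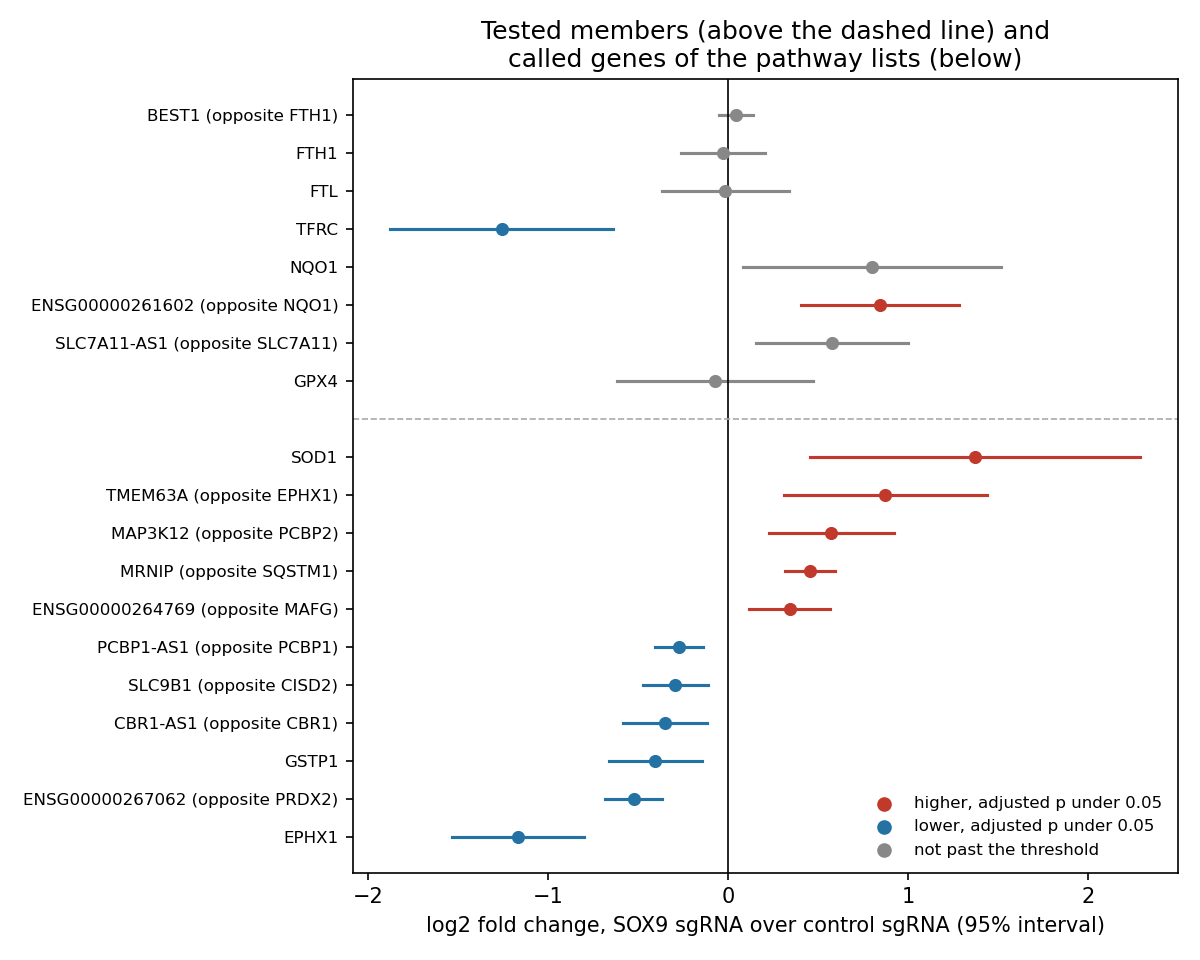
Log2 fold change of SOX9 sgRNA over control sgRNA with 95% intervals from edgeR, for the 8 tested members above the dashed line and the 11 called genes of the pathway lists and their opposite strands under it. TFRC at -1.26 and EPHX1 at -1.17 lie far left; SOD1 at 1.37 lies farthest right with a wide interval.

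EPHX1, the microsomal epoxide hydrolase and an NRF2 target, fell with SOX9 sgRNA. It had 59, 64 and 66 counts with SOX9 sgRNA, against 126, 130 and 108 with control sgRNA. The means were 72.8 ± 9.59 CPM with SOX9 sgRNA and 163 ± 6.75 CPM with control sgRNA (SD, n = 3 each), a log2 fold change of -1.17 (SE 0.18, adjusted p = 1.63e-06 by edgeR). The groups were far apart, and leaving out a library gave -1.28 to -1.09. TMEM63A, an ion channel gene that overlaps EPHX1 by 24 bases on the other strand, rose by 0.87 on the log2 scale (SE 0.28, adjusted p = 0.036 by edgeR) and kept the call in 2 of the 6 fits.

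In the glutathione and thioredoxin list, 7 of 20 genes were tested and 1 was called, lower, beside 6.02% of all tested genes. GSTP1, a glutathione transferase, had 253, 237 and 192 CPM with SOX9 sgRNA, against 343, 254 and 302 CPM with control sgRNA. The groups did not overlap but nearly met, and the log2 fold change was -0.40 (SE 0.13, adjusted p = 0.0352 by edgeR), kept in 3 of 6 fits. ENSG00000267062, opposite the peroxiredoxin gene PRDX2 over 296 bases, fell to 760, 846 and 831 CPM with SOX9 sgRNA, against 1215, 1203 and 1090 CPM with control sgRNA. This was a log2 fold change of -0.53 (SE 0.080, adjusted p = 8.16e-07 by edgeR), and that of PRDX2 itself was -0.50 (SE 0.34, adjusted p = 0.43 by edgeR).

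SOD1, the cytosolic superoxide dismutase, was the 1 tested gene of its list of 3. It had 22, 20 and 26 counts with SOX9 sgRNA, against 10, 3 and 9 with control sgRNA. The control counts were all at or below the filter's minimum of 10, so SOD1 entered the test only through the SOX9 sgRNA libraries, which were all higher. It had a log2 fold change of 1.37 (SE 0.46, adjusted p = 0.0456 by edgeR), but 0.11 after adjustment by DESeq2 and 0.16 by edgeR with no filter. The call held in 1 of the 6 fits that left out a library, where the value ran from 0.96 to 1.64.

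Among the 10 NRF2 regulators, 6 were tested and none was called by edgeR in its own right. NFE2L2 and KEAP1 lie outside the rule for naming genes and are given because they encode NRF2 and its inhibitor. NFE2L2 had 15.7, 20.8 and 38.0 CPM with SOX9 sgRNA, against 8.01, 16.5 and 24.4 CPM with control sgRNA (log2 fold change 0.63, SE 0.42, adjusted p = 0.42 by edgeR). Its control counts of 6, 13 and 17 lay near the filter's minimum of 10, which all of its SOX9 sgRNA counts exceeded. KEAP1 had 37.3, 24.7 and 31.2 CPM with SOX9 sgRNA, against 24.0, 19.05 and 34.5 CPM with control sgRNA, with a log2 fold change of 0.28. The groups overlapped for both.

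Opposite the NRF2 regulators, 2 of 5 tested genes rose, beside 2.99% of all tested genes. MRNIP, a DNA repair factor gene, overlaps 1582 exon bases of SQSTM1, whose product p62 sequesters KEAP1. MRNIP had 1827, 1985 and 2050 CPM with SOX9 sgRNA, against 1426, 1441 and 1412 CPM with control sgRNA, a log2 fold change of 0.45 (SE 0.070, adjusted p = 9.44e-07 by edgeR). All 3 SOX9 sgRNA libraries were higher. SQSTM1 itself had 382, 429 and 382 CPM with SOX9 sgRNA, against 402, 430 and 358 CPM with control sgRNA. Those values overlapped, with a log2 fold change of 0.00 (SE 0.11, 0.998 after adjustment by edgeR). ENSG00000264769, opposite the small MAF gene MAFG, rose by 0.34 on the log2 scale (SE 0.11, adjusted p = 0.0401 by edgeR), kept in 2 of 6 fits.

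In the iron list, 5 of 23 genes were tested and none was called by edgeR, while opposite them 1 gene rose and 1 fell of 3 tested, beside 2.99% higher and 6.02% lower of all tested genes. Both lie opposite poly(C)-binding proteins, PCBP1 and PCBP2, which are known to carry iron to ferritin. PCBP1-AS1 had 1872, 1962 and 1824 CPM with SOX9 sgRNA, against 2280, 2239 and 2319 CPM with control sgRNA. It was lower in all SOX9 sgRNA libraries, with a log2 fold change of -0.27 (SE 0.066, adjusted p = 0.00242 by edgeR). MAP3K12, a kinase gene opposite PCBP2, rose by 0.57 on the log2 scale (SE 0.17, adjusted p = 0.0223 by edgeR), kept in 2 of 6 fits. The proteins' own genes had log2 fold changes of -0.05 for PCBP1 and 0.18 for PCBP2, and neither passed. The iron regulatory protein genes ACO1 and IREB2, also outside the naming rule, are given for their part in ferritin and TFRC control. ACO1 had 21, 34 and 16 counts with SOX9 sgRNA, against 8, 13 and 7 with control sgRNA. IREB2 had 16, 11 and 23 with SOX9 sgRNA, against 10, 11 and 5 with control sgRNA. Only the SOX9 sgRNA counts were all above the filter's minimum of 10, so both genes entered the test through those libraries. Neither passed: ACO1 had a log2 fold change of 1.15 (SE 0.43, adjusted p = 0.092 by edgeR) and IREB2 one of 0.69 (SE 0.49).

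The other lists held few tested genes, so their shares rest on few calls, beside 9.01% of all tested genes. Called shares were 11.1% of the tested quinone, aldehyde and NADPH enzymes and 50% of the 4 tested genes opposite them. They were 0% of the tested lipid peroxidation and ferroptosis genes and 25% of the 4 tested genes opposite them. Of the quinone, aldehyde and NADPH enzymes, 9 of 21 were tested and EPHX1 was called; CBR1-AS1, opposite the carbonyl reductase gene CBR1, fell by 0.35 on the log2 scale (SE 0.12, adjusted p = 0.0441 by edgeR) and kept the call in 1 of 6 fits. Of the lipid peroxidation and ferroptosis genes, 7 of 14 were tested and none was called by edgeR; SLC9B1, opposite the iron-sulfur protein gene CISD2, fell by 0.29 on the log2 scale (SE 0.091, adjusted p = 0.0284 by edgeR), kept in 2 of 6 fits. Of 8 heme genes only HMOX2, the constitutive heme oxygenase, was tested, with a log2 fold change of 0.15 (SE 0.50, adjusted p = 0.92 by edgeR), and NMRAL1 opposite it had -0.58 (SE 0.30). ABCB6, a porphyrin transporter and the heme gene next in level, had 15.7, 9.10 and 10.7 CPM with SOX9 sgRNA, against 4.01, 12.7 and 5.75 CPM with control sgRNA.

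**Figure D4:**
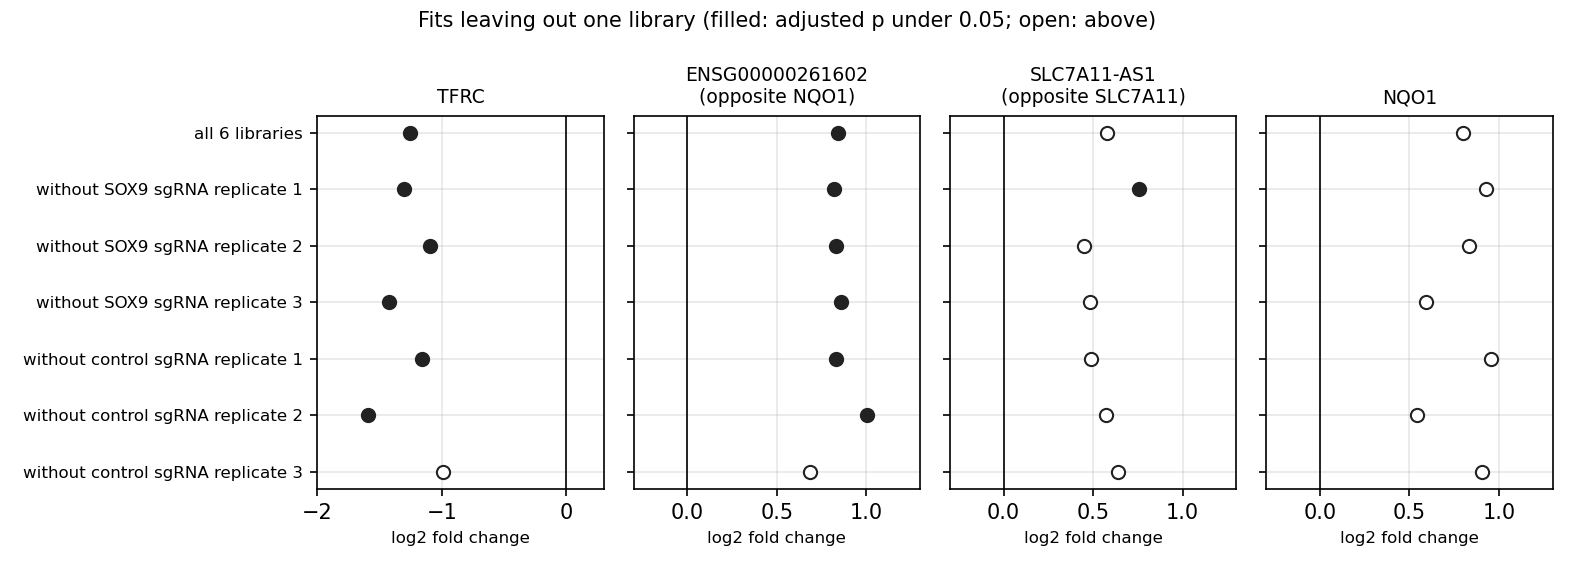
Log2 fold change of SOX9 sgRNA over control sgRNA for 4 genes in the fit of all 6 libraries and in the 6 fits that each left out a library. TFRC stays between -1.60 and -0.99 and ENSG00000261602 between 0.69 and 1.00, each losing its call without control replicate 3.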

How the data were processed

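The 6 tables hold raw counts per gene, made by the authors with featureCounts 1.6.2 and paired exon counting on Ensembl GRCh37 release 75, with strand setting 1 and overlapping features allowed, per the file headers. STAR 2.7.10a and Subread 1.6.2 are named in the submitters' processing notes. The deposited annotation leaves out ribosomal RNA genes and the mitochondrial chromosome, per the file headers. The deposited length column gives exon bases per gene and was used for CPM per kb.

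Counts were fitted with edgeR 4.0.16 (R 4.3.3; TMM, filterByExpr with a minimum count of 10, glmQLFit, glmQLFTest), calls being made at an adjusted p under 0.05 over 7959 genes; 95% intervals are unadjusted. Overlaps of at least 1 base came from bedtools 2.31.1. The code was tested on simulated data. Alternatives were library totals, DESeq2 1.42.0, no filter, a stricter filter (minimum count 30), a replicate block, an overlap of 50 bases and leaving out each library. Chi-square per degree of freedom was 2.00 to 2.67 between libraries of a group and 5.50 to 7.40 across groups, so none was a copy. Deviations of same-numbered libraries correlated at -0.003, 0.019 and -0.011, so numbers were not treated as pairs.

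Members and lists were chosen with earlier results of these data known. Named genes were the members, the called genes of the lists and their opposite strands, the 2 highest genes of a list without a call, and the 3 genes closest in pattern to the member with the smallest adjusted p. Some marker genes are not reported here.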

Additional observations from a re-analysis of the deposited data

How the results depend on the processing

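Fold changes are log2. At 776125 to 1018854 counts per library, HMOX1, TXNRD1, GCLM and SLC7A11 stay under the test's filter. With library totals FTH1 was 0.15, FTL 0.17, GPX4 0.11, BEST1 0.23 and SLC7A11-AS1 0.76; genes called were 625 higher and 249 lower, against 238 and 479 with TMM, members called higher were 3, list genes called were 3 higher and 1 lower with a median of 0.11, and 1 opposite gene was lower with a median of 0.14. DESeq2 called 128 genes higher, 0 list genes higher and 1 lower, and 2 opposite genes in each direction. With no filter, 151 genes and 0 list genes were higher (median 0.10), and opposite genes were 1 higher and 2 lower (median -0.23). The stricter filter gave FTH1 0.019, FTL 0.033 and SLC7A11-AS1 0.62, 2 members higher and 0 lower (TFRC was filtered out), 0 list genes higher and 1 lower, and 2 opposite genes lower. The replicate block, for numbers that do not pair libraries, called 175 genes higher and 399 lower, 0 list genes higher and 1 lower, and 2 opposite genes in each direction, and changed no member call (TFRC -1.25). Causes were not tested. Leaving out each library gave FTH1 -0.12 to 0.02, FTL -0.13 to 0.15, TFRC -1.60 to -0.99, ENSG00000261602 0.69 to 1.00, SLC7A11-AS1 0.45 to 0.75, members higher 0 to 2 and lower 0 to 1, list genes higher 0 to 1 and lower 1 to 2 with a median of -0.054 to 0.029, and opposite genes higher 1 to 3 and lower 2 to 4. Of 120 values of called list genes under alternatives, 66 kept the call and 54 lost it, with no change of direction. An overlap of 50 bases gave the same pairs and shares for FTH1, NQO1 and SLC7A11.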
